A study of Rattus norvegicus with 6 samples.

Results

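Chemokine ligands and their receptors were followed in whole lung of male Sprague-Dawley rats 4 weeks after monocrotaline. The members were all genes of the deposited table whose symbol begins with Ccl, Cxcl, Cx3cl, Xcl, Ccr, Cxcr, Cx3cr, Xcr or Ackr and a digit, except Ccl21, which the rule leaves out. This gave 55 genes of the 23802 in the table: 33 ligands, 18 signalling receptors and 4 atypical receptors. The MCT group held 3 samples from rats labelled wild type and given 1 dose of 60 mg/kg monocrotaline (MCT), an alkaloid that injures lung vessels and is used to model pulmonary hypertension. The control group held 3 samples from wild-type rats given saline. The route of MCT is intraperitoneal in the treatment protocol and subcutaneous in the sample characteristics, and saline was subcutaneous, so a difference in route cannot be told apart from the treatment. Rats weighed 200 to 250 g. Since the labels do not say that each sample is 1 animal, the spread behind the p-values may in part be technical.

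Chemokines are small secreted proteins that guide leukocytes along concentration gradients and hold them on endothelium. They are called CC, CXC, CX3C and XC by the spacing of their first cysteines, and they signal through G protein-coupled receptors. Atypical receptors bind chemokines without G protein signalling, and most of them take up and clear their ligands. In lung, macrophages, epithelium, endothelium and fibroblasts all make chemokines, and the receptors are found mostly on leukocytes.

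Library totals ranged from 13525937 to 17916144 counts, and the members together took 0.201%, 0.147% and 0.178% of them in MCT replicates 1 to 3 and 0.124%, 0.152% and 0.145% in control replicates 1 to 3. The surfactant gene Sftpc, a marker of alveolar type 2 cells, was high in every library, at 5496 to 10870.3 CPM in MCT lungs and 12360.2 to 14855 CPM in control lungs. CPM here is the count scaled to the library's TMM-normalized size. In whole tissue, a change in the number of cells of a type and a change in RNA per cell cannot be told apart. MCT replicate 1 stood apart in neutrophil transcripts: the summed level of 8 neutrophil markers was 596, 73.3 and 53.0 CPM in MCT replicates 1 to 3, against 49.4, 61.9 and 33.5 CPM in control replicates 1 to 3. In MCT replicate 1 most of the neutrophil sum was S100a9, at 456 CPM, and S100a8 added 84.7 CPM. Csf3r differed less, at 35.4, 16.5 and 10.6 CPM in MCT replicates 1 to 3, as did Mmp8, at 12.8, 9.48 and 8.13 CPM. Results that rest on MCT replicate 1 are given with and without it.

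Of the 46 members with enough reads to be tested, 15 rose in MCT lungs, 2 fell and 29 did not pass (adjusted p under 0.05 in edgeR's quasi-likelihood test, with Benjamini-Hochberg adjustment over all 15250 tested genes). Among all tested genes 8.01% rose and 5.11% fell, 13.1% in either direction. The members called made up 37% of those tested, and 14 of them changed by at least 2-fold, where 6.81% of all tested genes did. The median log2 change of the tested members was 0.72, against -0.01 over all tested genes. Among ligands 10 of 27 tested rose and 1 fell, with a median of 1.16. Among receptors of all kinds 5 of 19 rose and 1 fell, with a median of 0.00. A member that reached the read minimum through the group where it is high had to differ. Ccl22 and Ackr2 reached it in all 3 MCT libraries and in no control library. Ccl12 and Cxcl11 reached it in all 3 MCT libraries and in 1 control library, so they too were tested through their MCT reads. The groups did not overlap for 24 tested members, where 35.4% of all tested genes did not. Of these members 21 were higher in MCT lungs and 3 lower, against 18.4% and 17.0% of all tested genes. The calls depended on single samples: the members higher numbered 9, 17 and 10 without MCT replicates 1, 2 and 3, and 7, 6 and 7 without control replicates 1, 2 and 3. The members lower numbered 1 without MCT replicate 3, control replicate 2 or control replicate 3. The calls of Ccl24, Ackr4, Cxcl9, Ackr2, Ccl9 and Ccl2 held with any 1 sample left out.

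**Figure D1:**
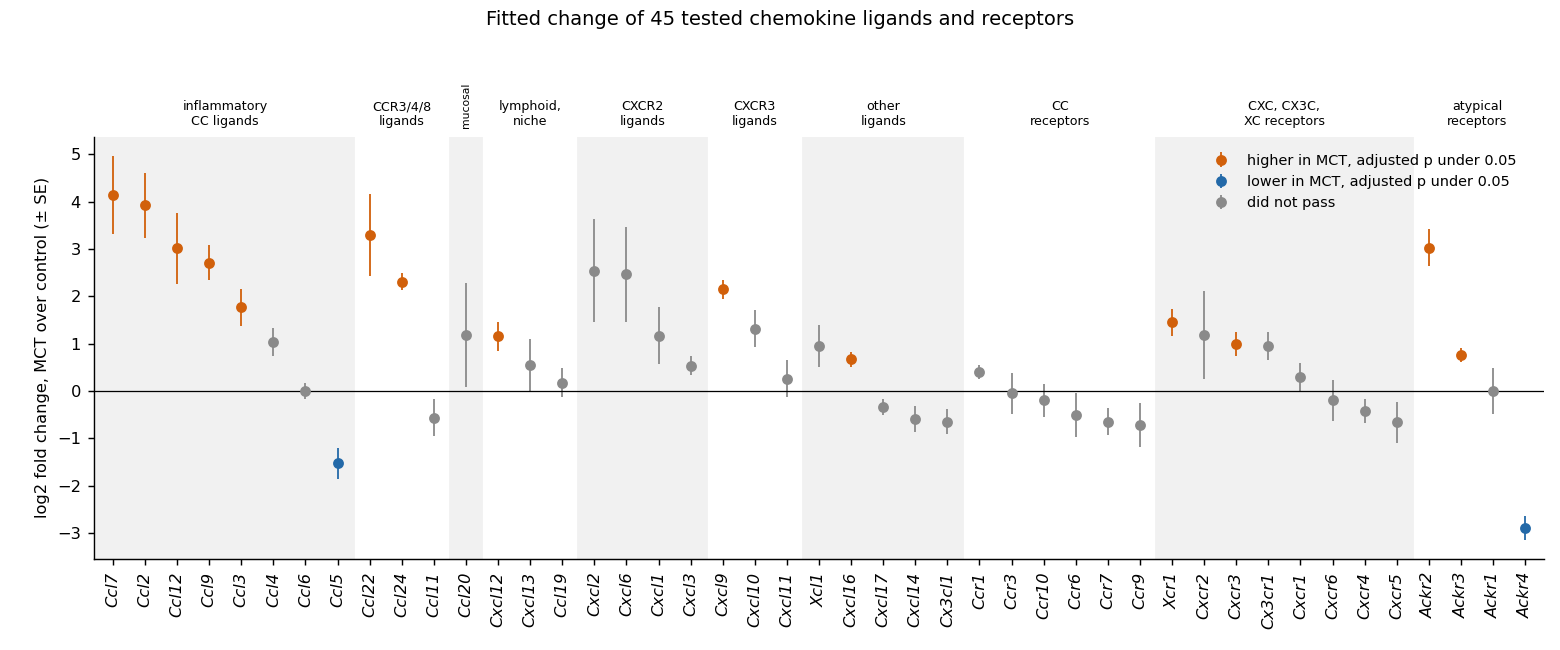
Fitted log2 fold change (MCT over control, points) with its standard error (bars) for 45 of the 46 tested members, grouped by role and coloured by whether the member rose, fell or did not pass. Changes run from 4.14 for Ccl7 to -2.90 for Ackr4.

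Levels were compared between genes on the FPKM scale, which the authors scaled by gene length. Ccl6, a CC chemokine known from rodents, was the most abundant member at 345 ± 47.1 FPKM in MCT lungs and 347 ± 62.3 FPKM in control lungs (SD, n = 3). Cxcl17, a mucosal chemokine of airway epithelium, stood at 103 ± 22.6 FPKM in MCT lungs and 132 ± 15.3 FPKM in control lungs. Cxcl3 stood at 103 ± 24.5 FPKM in MCT lungs and 73.4 ± 10.7 FPKM in control lungs. The MCT ranges of Cxcl17, Cxcl3, Ackr3 and Cxcl16 overlapped one another, so their order in MCT lungs is not resolved. Ackr3 stood at 109.8 ± 17.5 FPKM in MCT lungs and 65.0 ± 5.32 FPKM in control lungs, and Cxcl16 at 103 ± 19.1 FPKM in MCT lungs and 65.1 ± 9.10 FPKM in control lungs. Ccl5 was among the abundant members of control lungs and lower in MCT lungs, at 37.3 ± 18.2 FPKM in MCT lungs and 109 ± 25.7 FPKM in control lungs. Ccl2 stood at 58.0 ± 48.8 FPKM in MCT lungs and 3.82 ± 1.26 FPKM in control lungs and Ccl9 at 63.0 ± 30.1 FPKM in MCT lungs and 9.67 ± 1.01 FPKM in control lungs, so both were minor transcripts of control lungs. Levels given from here on are CPM and are compared only within a gene.

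The inflammatory CC ligands, among them those of CCR1 and CCR2, draw monocytes and activated leukocytes, and held the largest rises of all members. Of 8 tested 5 rose, 1 fell and 2 did not pass. Ccl7, a monocyte attractant that binds CCR2, stood at 44.7, 3.79 and 14.2 CPM in MCT lungs, against 0.865, 1.12 and 1.51 CPM in control lungs. Ccl2, the main CCR2 ligand, stood at 91.5, 11.3 and 42.2 CPM in MCT lungs, against 2.06, 3.50 and 3.94 CPM in control lungs. Ccl12, a CCR2 ligand in the mouse, stood at 13.6, 1.96 and 6.51 CPM in MCT lungs, against 0.466, 1.79 and 0.539 CPM in control lungs. For all 3 genes every MCT library lay above every control library, and the MCT libraries had the same order, with replicate 1 highest and replicate 2 lowest. Ccl12 reached the read minimum in all 3 MCT libraries but in only 1 control library. Ccl7 rose 17.6-fold (log2 4.14, SE 0.83, adjusted p = 0.0163). Ccl2 rose 15.1-fold (log2 3.92, SE 0.69, adjusted p = 0.01). Ccl12 rose 8.06-fold (log2 3.01, SE 0.76, adjusted p = 0.0349). Leaving out MCT replicate 1, the highest library for all 3 genes, gave log2 changes of 2.93 for Ccl7 (adjusted p = 0.0203), 3.07 for Ccl2 (adjusted p = 0.0134) and 2.21 for Ccl12 (adjusted p = 0.0989). The call of Ccl7 was lost without any 1 of the controls (adjusted p = 0.0558 to 0.0704) and that of Ccl12 without any sample but MCT replicate 2 (adjusted p = 0.0535 to 0.126). Leaving out control replicate 2 moved Ccl12 to a log2 change of 3.84. On log2(FPKM + 1) the log2 changes were 2.87 for Ccl7, 3.21 for Ccl2 and 2.10 for Ccl12. With limma-voom none of the 3 passed (adjusted p = 0.0662 for Ccl2, 0.0874 for Ccl12 and 0.108 for Ccl7), and Ccl12 missed on the FPKM scale named as well (adjusted p = 0.0506). The receptor gene Ccr2 was not analysed here.

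Ccl9, a CCR1 ligand in the mouse, was high in all MCT libraries, at 99.2, 37.2 and 108 CPM in MCT lungs, against 13.2, 13.6 and 10.6 CPM in control lungs. It rose 6.54-fold (log2 2.71, SE 0.37, adjusted p = 0.00379). Ccl3, a macrophage product that binds CCR1, stood at 26.9, 9.07 and 24.4 CPM in MCT lungs, against 4.26, 7.08 and 6.31 CPM in control lungs. Its groups did not overlap and it rose 3.41-fold (log2 1.77, SE 0.39, adjusted p = 0.023), which was lost without any sample but MCT replicate 2 (adjusted p = 0.0653 to 0.0784) and with limma-voom (adjusted p = 0.0617). Ccl4, a close relative of Ccl3, had 9.56, 6.40 and 13.4 CPM in MCT lungs, against 4.26, 5.66 and 4.42 CPM in control lungs. These groups did not overlap, but the 2.05-fold difference did not pass (adjusted p = 0.0536). Ccl4 did pass with DESeq2 (adjusted p = 0.0115), with no read filter (adjusted p = 0.0489) and when MCT replicate 2 was left out (adjusted p = 0.0166). Ccl6 overlapped between the groups, with a log2 change of 0.00 (SE 0.17). Transcripts of macrophages moved with these ligands. Of 9 tested macrophage markers 8 rose. The summed level of the 10 markers was 1837, 1217 and 1255 CPM in MCT replicates 1 to 3 and 507 to 619 CPM in control lungs. The scavenger receptor gene Marco was at 0.271 CPM or below in every library. All 6 mast cell markers rose too. Their sums were 1452, 398 and 788 CPM in MCT replicates 1 to 3, against 36.2, 32.0 and 24.9 CPM in control replicates 1 to 3. The macrophage sums of MCT replicates 2 and 3 lay close together. Csf1r and Siglec1 were lower in replicate 3 than in replicate 2, while most other macrophage markers were lowest in replicate 2. The macrophage and mast cell sums both had the order of the MCT libraries seen for Ccl2, Ccl7 and Ccl12. That order was common: among all genes that rose, 69% were highest of the MCT libraries in replicate 1 and 59.8% lowest in replicate 2. The part of macrophages and mast cells in the ligands' change was not tested.

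Ccl5, a chemokine made by T and NK cells, went the other way. It stood at 14.6, 32.2 and 14.6 CPM in MCT lungs, against 47.8, 75.2 and 55.1 CPM in control lungs, with no overlap. Ccl5 fell 2.89-fold (log2 -1.53, SE 0.32, adjusted p = 0.0187), which was lost without MCT replicate 1 or 3 or control replicate 2 or 3 (adjusted p = 0.0522 to 0.0728). NK cell markers fell in the same libraries: all 5 fell, and their sum was 37.5 to 63.1 CPM in MCT lungs and 99.9 to 148 CPM in control lungs. Of the 8 T cell markers Cd8a fell by 1.12 on the log2 scale (adjusted p = 0.0125) and 7 did not pass. The sums of the 8 were 61.9 to 90.4 CPM in MCT lungs and 75.2 to 121 CPM in control lungs. Cd4 was the only marker of the list with a positive log2 change (0.70, adjusted p = 0.12). It was the largest part of every MCT sum, at 41.5, 29.5 and 28.6 CPM in MCT lungs and 13.1, 27.6 and 20.7 CPM in control lungs. MCT replicate 2 was the highest MCT library for Ccl5 and for both marker sums. The part of these cells in the change of Ccl5 was not tested.

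Genes that lie side by side did not all move alike. In the RefSeq annotation of GRCr8 the genes Ccl2, Ccl7, Ccl11, Ccl12 and Ccl1 follow each other on chromosome 10 with no other protein-coding gene between them. Ccl2, Ccl7 and Ccl12 rose, while the eotaxin gene Ccl11, which lies between Ccl7 and Ccl12, did not pass (log2 -0.56, adjusted p = 0.379). A second run on that chromosome holds Ccl5, Ccl9, Ccl6, Ccl3 and Ccl4. There Ccl9 and Ccl3 rose, Ccl5 fell, and Ccl6, next to Ccl9, overlapped between the groups.

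**Figure D2:**
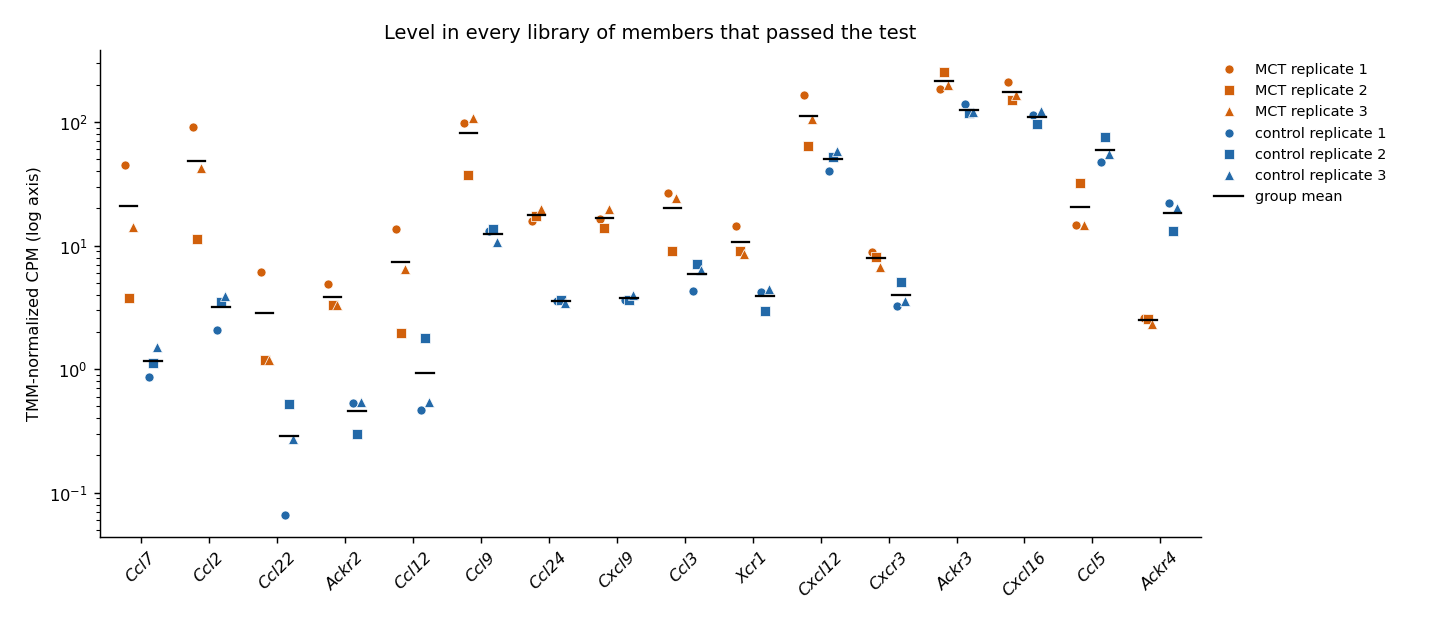
TMM-normalized CPM (log axis) of 16 of the 17 members that passed the test in each of the 6 libraries, MCT left of control, with the marker shape giving the replicate and the black bar the group mean. Ccl24, Cxcl9 and Ackr4 have narrow MCT groups, while MCT replicate 1 lies well above the other MCT libraries for Ccl7, Ccl2, Ccl22 and Ccl12.

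The ligands of CCR3, CCR4 and CCR8 act on eosinophils, type 2 helper T cells and regulatory T cells. Ccl24, an eotaxin made by macrophages that binds CCR3, stood at 15.8, 17.2 and 20.0 CPM in MCT lungs, against 3.59, 3.65 and 3.45 CPM in control lungs. It rose 4.95-fold (log2 2.31, SE 0.18, adjusted p = 0.000593), and the 3 libraries of each group lay close together. Ccl22, a CCR4 ligand of dendritic cells and macrophages, stood at 6.10, 1.19 and 1.19 CPM in MCT lungs, against 0.0665, 0.521 and 0.27 CPM in control lungs. Its control level rests on 1 to 7 counts a library, and MCT replicate 1 was well above the other MCT libraries. Ccl22 rose 9.83-fold (log2 3.30, SE 0.87, adjusted p = 0.0401), which was lost without MCT replicate 1 or any 1 of the controls (adjusted p = 0.0811 to 0.132). Its log2 change was 2.06 when MCT replicate 1 was left out and 3.95 when control replicate 2 was. It also missed with limma-voom (adjusted p = 0.0743), on log2(FPKM + 1) at 1.01 (adjusted p = 0.107) and on log2(FPKM + 0.1) at 2.41 (adjusted p = 0.0515). Ccl11 stood at 5.76, 14.0 and 13.3 CPM in MCT lungs and 24.7, 14.1 and 10.4 CPM in control lungs, and its groups overlapped. The remaining ligands of this group had too few reads to be tested. Ccl1, which binds CCR8, had 10, 3 and 6 counts in MCT lungs and 1, 0 and 0 in control lungs. Ccl17, which binds CCR4, had 18, 1 and 7 counts in MCT lungs and 3, 0 and 1 in control lungs. Ccl26 had a single count in 1 library. Among eosinophil granule genes Epx stood at 0 to 0.28 CPM in MCT lungs and 0.0665 to 0.377 CPM in control lungs and Prg2 at 0.35 to 0.475 CPM in MCT lungs and 0.108 to 0.521 CPM in control lungs. The eotaxin receptor gene Ccr3 overlapped as well, at 0.474 to 0.814 CPM in MCT lungs and 0.521 to 0.732 CPM in control lungs, and did not pass.

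The interferon-induced ligands of CXCR3 draw activated T and NK cells. Cxcl9 stood at 16.3, 14.0 and 19.8 CPM in MCT lungs, against 3.66, 3.65 and 3.99 CPM in control lungs, and rose 4.42-fold (log2 2.14, SE 0.20, adjusted p = 0.000973). Cxcl10 stood at 4.00, 6.16 and 3.99 CPM in MCT lungs, against 1.20, 1.56 and 2.86 CPM in control lungs. Its groups did not overlap either, but the 2.49-fold difference did not pass (adjusted p = 0.0564). Cxcl10 lay near the threshold and passed with DESeq2 (adjusted p = 0.0143), limma-voom (adjusted p = 0.0497), a stricter read filter (adjusted p = 0.0474), both FPKM scales (adjusted p = 0.0389 and 0.0433) and when control replicate 3 was left out (adjusted p = 0.049). Cxcl11 was low throughout, at 0.711 to 0.814 CPM in MCT lungs and 0.532 to 0.701 CPM in control lungs, and did not pass (log2 0.26, SE 0.39). The receptor gene Cxcr3 stood at 8.88, 8.06 and 6.72 CPM in MCT lungs, against 3.26, 5.06 and 3.56 CPM in control lungs. It rose (log2 1.0, SE 0.25, adjusted p = 0.0363), which was lost without any sample but control replicate 2 (adjusted p = 0.0589 to 0.125). Ifng, the gene of the interferon known to induce these ligands, had 0, 0 and 0 counts in MCT lungs and 5, 3 and 2 in control lungs.

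Cxcl11, Cxcl10 and Cxcl9 follow each other on chromosome 14. Their promoters are shown because these neighbours share an inducer and differ in their values; they were chosen after the values were seen. Each run holds the 250 bases before the first RefSeq start in GRCr8, 5′ to 3′ on the strand given. Capitals mark matches, on either strand, to the NF-kB consensus, to GAAA repeated after a gap of 2 bases, a pattern of interferon response elements, and to TTCNNNGAA, the pattern bound by STAT proteins.
Cxcl9 (GRCr8 chr14:16006916-16007165, plus strand): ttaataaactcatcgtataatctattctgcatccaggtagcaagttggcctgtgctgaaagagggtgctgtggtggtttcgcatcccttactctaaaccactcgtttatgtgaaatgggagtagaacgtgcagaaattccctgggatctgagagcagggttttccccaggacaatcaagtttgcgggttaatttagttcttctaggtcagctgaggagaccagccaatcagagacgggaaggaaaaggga
Cxcl10 (GRCr8 chr14:15988816-15989065, plus strand): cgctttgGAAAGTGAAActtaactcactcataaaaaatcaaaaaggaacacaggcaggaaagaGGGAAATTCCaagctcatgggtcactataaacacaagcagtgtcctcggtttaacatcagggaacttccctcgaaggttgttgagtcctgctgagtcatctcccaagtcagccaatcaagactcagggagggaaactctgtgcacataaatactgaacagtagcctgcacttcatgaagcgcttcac
Cxcl11 (GRCr8 chr14:15973478-15973727, plus strand): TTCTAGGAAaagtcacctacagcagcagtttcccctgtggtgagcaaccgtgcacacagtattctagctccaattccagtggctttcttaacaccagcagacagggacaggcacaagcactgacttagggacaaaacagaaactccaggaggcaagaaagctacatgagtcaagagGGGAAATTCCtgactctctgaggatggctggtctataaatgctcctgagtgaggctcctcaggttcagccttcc
Cxcl10 holds the GAAA repeat and the NF-kB consensus, and Cxcl11 holds TTCNNNGAA and the NF-kB consensus. None of these letters is in the Cxcl9 window, which says nothing of sites elsewhere. Of all 27457 promoters of this length, 3.52% hold the NF-kB consensus, 3.29% the GAAA repeat and 7.52% TTCNNNGAA. Among the 41 members with a promoter in the table the shares were 19.5%, 4.88% and 9.76%. A match describes letters and not a bound site.

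The ligands of CXCR2 draw neutrophils. None of the 4 passed with edgeR, DESeq2 or limma-voom, though 3 had an unadjusted p under 0.05 with edgeR. The share of all tested genes under that unadjusted threshold was not counted. Cxcl1 stood at 100.3, 15.3 and 24.4 CPM in MCT lungs, against 16.0, 26.3 and 19.9 CPM in control lungs. Cxcl6 stood at 25.6, 2.02 and 1.82 CPM in MCT lungs, against 0.798, 2.16 and 2.32 CPM in control lungs. Cxcl2 stood at 4.81, 0.178 and 1.26 CPM in MCT lungs, against 0.0665, 0.745 and 0.27 CPM in control lungs. MCT replicate 1 was the highest library for all 3 genes. MCT replicates 2 and 3 lay within the control range for Cxcl6, and within or below it for Cxcl1; for Cxcl2, MCT replicate 3 lay above the controls and MCT replicate 2 among them. The log2 changes were 1.17 for Cxcl1 (SE 0.61, adjusted p = 0.235), 2.46 for Cxcl6 (SE 1.0, adjusted p = 0.14) and 2.54 for Cxcl2 (SE 1.08, adjusted p = 0.156). Leaving out MCT replicate 1 gave -0.06 for Cxcl1, 0.12 for Cxcl6 and 1.0 for Cxcl2, with adjusted p of 0.604 to 0.923. Leaving out MCT replicate 2 brought Cxcl2 past the threshold at 3.10 (adjusted p = 0.0416). Cxcl3, the most abundant of the group, stood at 89.9, 53.2 and 80.2 CPM in MCT lungs and 45.1, 51.2 and 57.9 CPM in control lungs. It did not pass (log2 0.53, adjusted p = 0.109) unless MCT replicate 2 was left out (log2 0.73, adjusted p = 0.0143). The sources used here do not say how reads shared by such related genes were assigned.

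Ccl20, the CCR6 ligand that epithelium makes in inflammation, was also highest in MCT replicate 1, at 21.3, 0.593 and 1.40 CPM in MCT lungs, against 2.53, 6.11 and 1.78 CPM in control lungs. It did not pass (log2 1.17, SE 1.10, adjusted p = 0.519), and its value was -1.79 when that library was left out (adjusted p = 0.148). The neutrophil receptor gene Cxcr2 stood at 6.17, 0.711 and 0.42 CPM in MCT lungs and 0.932, 1.71 and 0.593 CPM in control lungs. Its log2 change of 1.19 (adjusted p = 0.434) became -0.88 when MCT replicate 1 was left out (adjusted p = 0.444). The other interleukin-8 receptor gene, Cxcr1, was not highest in that library, at 7.53, 10.4 and 13.8 CPM in MCT lungs and 11.3, 8.49 and 5.99 CPM in control lungs. S100a9, a protein of neutrophil cytosol, stood at 456, 36.5 and 22.4 CPM in MCT lungs and 18.8, 27.6 and 16.0 CPM in control lungs, with MCT replicate 1 far above the other libraries. Of the 5 neutrophil markers tested none passed with edgeR, DESeq2 or limma-voom. With edgeR 4 had an unadjusted p under 0.05, for which the share over all tested genes was not counted. The lactoferrin gene Ltf was at 0 in all libraries. The part of neutrophils in the level of these members in MCT replicate 1 was not tested.

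The promoters of Cxcl1, Cxcl2, Cxcl6 and Ccl20 are shown because these 4 genes were highest in the same library and all hold the NF-kB consensus. Windows and capitals are as described for Cxcl9, and the paired matches in Cxcl1, Cxcl2 and Cxcl6 overlap each other.
Cxcl1 (GRCr8 chr14:17479322-17479571, minus strand): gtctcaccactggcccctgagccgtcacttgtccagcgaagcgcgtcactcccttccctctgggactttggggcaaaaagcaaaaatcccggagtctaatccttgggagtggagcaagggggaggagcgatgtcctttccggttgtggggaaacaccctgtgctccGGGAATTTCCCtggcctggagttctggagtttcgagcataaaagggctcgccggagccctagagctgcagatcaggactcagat
Cxcl2 (GRCr8 chr14:17467256-17467505, minus strand): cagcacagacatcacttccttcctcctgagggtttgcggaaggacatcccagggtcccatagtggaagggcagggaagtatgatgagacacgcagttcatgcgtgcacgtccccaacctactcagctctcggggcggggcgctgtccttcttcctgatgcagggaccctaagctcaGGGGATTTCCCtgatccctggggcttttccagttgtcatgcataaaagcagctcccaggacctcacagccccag
Cxcl6 (GRCr8 chr14:17596418-17596667, minus strand): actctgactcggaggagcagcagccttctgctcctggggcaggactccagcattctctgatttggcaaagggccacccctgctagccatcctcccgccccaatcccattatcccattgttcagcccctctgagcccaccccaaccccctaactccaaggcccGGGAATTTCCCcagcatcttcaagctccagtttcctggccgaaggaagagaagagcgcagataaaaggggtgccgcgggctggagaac
Ccl20 (GRCr8 chr9:91836909-91837158, plus strand): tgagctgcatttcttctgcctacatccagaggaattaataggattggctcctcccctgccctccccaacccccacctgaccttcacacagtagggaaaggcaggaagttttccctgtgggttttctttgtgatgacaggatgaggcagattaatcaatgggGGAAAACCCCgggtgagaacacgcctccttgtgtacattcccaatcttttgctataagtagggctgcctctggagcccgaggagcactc
The first match begins 84 bases before the start in Cxcl1, 74 in Cxcl2, 88 in Cxcl6 and 89 in Ccl20. The consensus was also found in Ccl9, Cxcl10, Cxcl11 and Ccr3, which makes 8 of the 41 members with a promoter. The 4 printed genes were chosen for their highest library and for the motif, so what they share shows nothing by itself. Of the 19 tested members with a promoter that were highest in MCT replicate 1, 6 hold the consensus and 13 do not, among them Ccl7, Ccl12, Ccl22, Cxcl13 and Cxcr2. Of the 15 highest in another library 2 hold it, Ccl9 and Cxcl10.

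**Figure D3:**
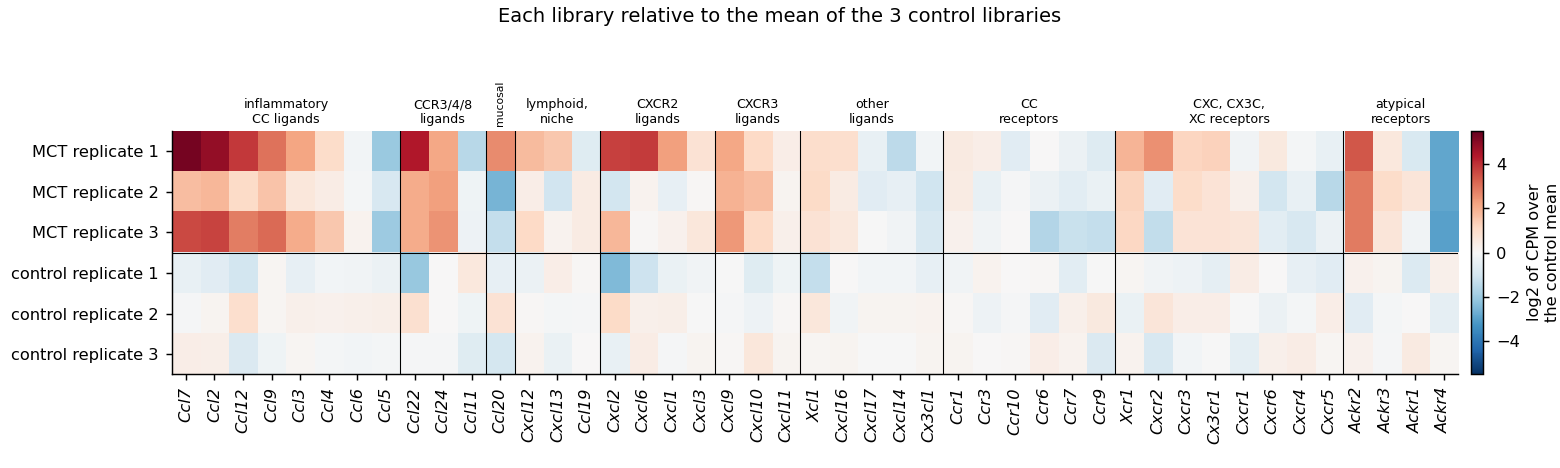
Log2 of each library's CPM over the mean of the 3 control libraries, for 45 of the 46 tested members grouped by role, with MCT libraries above control libraries. In MCT replicate 1 Ccl7, Ccl2, Ccl22, Cxcl2 and Cxcl6 stand far above the control mean, whereas Ccl24, Cxcl9, Ackr2 and Ackr4 have like values in all 3 MCT libraries.

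Of the 46 tested members, 23 had their highest level in MCT replicate 1, which is 50%, against 22.9% of all tested genes. Of the 15 members that rose, 11 were highest in MCT replicate 1 and 10 were lowest among MCT libraries in MCT replicate 2. Among all genes that rose, 69% were highest of the MCT libraries in replicate 1 and 59.8% lowest in replicate 2.

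Homeostatic ligands place lymphocytes and stem cells in their niches. Cxcl12, made by stromal cells and endothelium, stood at 167, 64.3 and 106 CPM in MCT lungs, against 40.3, 52.6 and 58.3 CPM in control lungs. It rose 2.23-fold (log2 1.16, SE 0.31, adjusted p = 0.0424), which was lost without any sample but MCT replicate 2 (adjusted p = 0.0886 to 0.117), with limma-voom (adjusted p = 0.0582) and on both FPKM scales (adjusted p = 0.0758 and 0.0745). Cxcr4, its signalling receptor, stood at 97.0, 77.2 and 56.8 CPM in MCT lungs and 75.2, 97.0 and 139 CPM in control lungs and did not pass (log2 -0.43, SE 0.25). Cxcl13, the B cell follicle chemokine, overlapped between groups at 14.0, 2.43 and 5.88 CPM in MCT lungs and 6.59, 4.69 and 3.99 CPM in control lungs. Its log2 change was 0.55, and -0.29 when MCT replicate 1 was left out (adjusted p = 0.733). Its receptor gene Cxcr5 stood at 0.771 to 1.75 CPM in MCT lungs and 1.46 to 2.83 CPM in control lungs (log2 -0.67, adjusted p = 0.336). All 4 B cell markers tested fell, with sums of 36.1 to 50.1 CPM in MCT lungs and 70.1 to 140.0 CPM in control lungs, and their part in the level of Cxcr5 was not tested. Ccl19, which guides cells through CCR7, did not pass (log2 0.18, adjusted p = 0.753). Ccr7 stood at 12.8, 10.9 and 6.93 CPM in MCT lungs and 10.7, 19.2 and 18.3 CPM in control lungs and did not pass (log2 -0.65, SE 0.29, adjusted p = 0.17).

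Of the 5 remaining ligands 1 rose. Cxcl16, a membrane-bound ligand of CXCR6, stood at 211, 151 and 167 CPM in MCT lungs, against 114, 96.1 and 122 CPM in control lungs. It rose 1.59-fold (log2 0.67, SE 0.16, adjusted p = 0.0275), which was lost without any sample but MCT replicate 2 (adjusted p = 0.0604 to 0.0944). Its receptor gene Cxcr6 overlapped between the groups, at 1.36 to 4.00 CPM in MCT lungs and 2.16 to 3.29 CPM in control lungs. Cx3cl1, the membrane-bound fractalkine of endothelium and epithelium, stood at 41.9, 21.7 and 25.1 CPM in MCT lungs and 34.0, 53.7 and 51.5 CPM in control lungs. It did not pass (log2 -0.65, adjusted p = 0.144) unless MCT replicate 1 was left out (log2 -0.98, adjusted p = 0.0354). Its receptor gene Cx3cr1 stood at 8.75, 6.16 and 6.09 CPM in MCT lungs and 2.60, 4.69 and 3.61 CPM in control lungs, with no overlap. Cx3cr1 did not pass with edgeR (log2 0.95, SE 0.29, adjusted p = 0.0664) and did with DESeq2 (adjusted p = 0.0233). Cxcl14, a chemokine of epithelium and fibroblasts, was below all controls in every MCT library, at 27.8, 55.4 and 65.5 CPM in MCT lungs, against 66.6, 83.9 and 73.6 CPM in control lungs, and did not pass (log2 -0.59, adjusted p = 0.184). Cxcl17 did not pass either (log2 -0.35, adjusted p = 0.204).

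XCL1 of NK and CD8 T cells acts on XCR1, which marks cross-presenting dendritic cells. Xcl1 stood at 3.25, 3.44 and 2.87 CPM in MCT lungs and 0.665, 2.53 and 1.78 CPM in control lungs, and did not pass (log2 0.95, SE 0.44, adjusted p = 0.19). Xcr1 stood at 14.3, 9.13 and 8.55 CPM in MCT lungs, against 4.19, 2.98 and 4.48 CPM in control lungs. It rose 2.73-fold (log2 1.45, SE 0.28, adjusted p = 0.0137), which was lost without control replicate 2 (adjusted p = 0.0561). On log2(FPKM + 1) its log2 change was 0.85. Of 6 dendritic cell markers 2 rose and 4 did not pass, with a summed level of 120.1 to 152 CPM in MCT lungs and 79.1 to 104 CPM in control lungs. Clec9a, another gene of cross-presenting dendritic cells, did not pass (log2 0.52, adjusted p = 0.208). The part of these cells in the rise of Xcr1 was not tested.

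The CC receptors named here did not pass. Ccr1, a receptor of monocytes and neutrophils, stood at 38.0, 36.2 and 31.2 CPM in MCT lungs and 23.0, 27.4 and 29.3 CPM in control lungs; the groups did not overlap, and it did not pass (log2 0.40, SE 0.14, adjusted p = 0.103). The mucosal homing receptor genes gave log2 changes of -0.51 for Ccr6, -0.72 for Ccr9 and -0.20 for Ccr10, with adjusted p of 0.512, 0.351 and 0.748. Ccr4 had 3 to 11 counts in MCT lungs and 3 to 18 in control lungs and was not tested, and Ccr8 and Ccr1l1 had at most 5 counts in any library. Of the mucosal ligands Ccl27 had 6, 8 and 4 counts in MCT lungs and 25, 5 and 13 in control lungs, Ccl28 had 9, 2 and 12 counts in MCT lungs and 2, 12 and 10 in control lungs, and Ccl25 had a single count; none was tested.

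The atypical receptors changed in opposite directions. Ackr4, which clears CCL19, CCL21 and CCL25, stood at 2.58, 2.55 and 2.31 CPM in MCT lungs, against 22.2, 13.1 and 20.2 CPM in control lungs. It fell 7.44-fold (log2 -2.90, SE 0.25, adjusted p = 0.000745). Ackr2, which clears inflammatory CC chemokines such as CCL2 and CCL3 and is made by lymphatic endothelium, stood at 4.88, 3.32 and 3.29 CPM in MCT lungs, against 0.532, 0.298 and 0.539 CPM in control lungs. It rose 8.15-fold (log2 3.03, SE 0.39, adjusted p = 0.00283), with 72, 56 and 47 counts in MCT lungs and 8, 4 and 10 in control lungs. Both calls held in every alternative. The groups of Ackr4 did not overlap. Those of Ackr2 had to differ, since it reached the read minimum in all MCT libraries and in no control library. On log2(FPKM + 1), where the pseudocount shrinks the changes of low genes, the log2 change was -2.17 for Ackr4 and 1.51 for Ackr2. Ackr3, which clears CXCL12, stood at 185, 254 and 201 CPM in MCT lungs, against 139.7, 117 and 119.8 CPM in control lungs. It rose 1.70-fold (log2 0.77, SE 0.15, adjusted p = 0.0147), which was lost without control replicate 2 or 3 (adjusted p = 0.064 to 0.0701). Ackr1, the Duffy receptor of venules and red cells, was measured on an assembled-transcript locus and overlapped, at 0.949 to 2.67 CPM in MCT lungs and 0.998 to 2.37 CPM in control lungs; its log2 change was 0.00 (SE 0.48) and took either sign across settings. Among 5 lymphatic endothelial markers 3 rose, 1 fell and 1 did not pass; Prox1, the lymphatic transcription factor, stood at 5.22 to 6.44 CPM in MCT lungs and 0.968 to 1.40 CPM in control lungs. Mmrn1 stood at 78.8 to 107 CPM in MCT lungs and 17.2 to 23.3 CPM in control lungs and Flt4 at 39.9 to 44.3 CPM in MCT lungs and 22.6 to 27.0 CPM in control lungs, while Lyve1 was the marker that fell. The summed lymphatic level overlapped, at 643 to 873 CPM in MCT lungs and 502 to 754 CPM in control lungs, but most of it was Pdpn, which alveolar type 1 cells make as well, at 392 to 617 CPM in MCT lungs and 295 to 542 CPM in control lungs. Markers of many other cell types fell with Ackr4, among them all 5 NK cell, all 4 tested B cell and 2 of 6 alveolar type 2 markers. Of 5 mesothelial markers 4 fell, with sums of 17.1 to 25.7 CPM in MCT lungs and 99.7 to 116 CPM in control lungs, and of 6 capillary endothelial markers 3 fell, with sums of 939.9 to 1771 CPM in MCT lungs and 2606 to 3019 CPM in control lungs. The part of these cells in the changes of Ackr2 and Ackr4 was not tested.

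Genes that act with chemokines were read from 4 further lists. Their counts stand beside shares of 8.01% higher and 5.11% lower among all tested genes. Of 23 receptor signalling genes tested 4 rose and 19 did not pass, with a median log2 change of 0.30. Arrb2, the arrestin that takes receptors off the membrane, rose 1.53-fold (adjusted p = 0.0207). Plcb2, a phospholipase of leukocytes, rose 1.59-fold (adjusted p = 0.0271), and Rac2, the leukocyte Rac GTPase, rose 1.53-fold (adjusted p = 0.0389). All 3 calls were lost without MCT replicate 1 or 3 or control replicate 1 or 3 (adjusted p = 0.0551 to 0.132). Gnai2, the most abundant of the list per length and a G protein subunit that these receptors use, did not pass (log2 0.11, adjusted p = 0.576). Of 12 other leukocyte attractants and receptors tested 5 rose, 1 fell and 6 did not pass, with a median of 0.72. C5ar1, the receptor of the complement fragment C5a, stood at 86.0, 76.3 and 79.2 CPM in MCT lungs, against 32.7, 24.4 and 23.2 CPM in control lungs, and rose 3.01-fold (adjusted p = 0.000993). Gpr183, the oxysterol receptor, rose 3.48-fold (adjusted p = 0.0079). Rarres2, the gene of chemerin and the most abundant of the list per length, rose 2.02-fold (adjusted p = 0.0073).

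Of 10 genes of chemokine trimming and display tested 3 rose, 1 fell and 6 did not pass. Mmp2, a protease known to cleave CCL7 and CXCL12, rose 2.52-fold (adjusted p = 0.00267). Mmp12, the macrophage elastase, stood at 85.8, 17.0 and 16.4 CPM in MCT lungs and 2.99, 4.47 and 2.70 CPM in control lungs. It rose by 3.56 on the log2 scale (adjusted p = 0.0134) and by 2.31 when MCT replicate 1 was left out (adjusted p = 0.00285); the call was lost without control replicate 2 or 3 (adjusted p = 0.053 to 0.0648) and with limma-voom (adjusted p = 0.0531). On log2(FPKM + 1) it was 2.59. Dpp4, the peptidase that clips CXCL12 and other chemokines, stood at 74.7, 153 and 92.7 CPM in MCT lungs, against 225, 214 and 242 CPM in control lungs. It fell by 1.09 on the log2 scale (adjusted p = 0.0224), which was lost without MCT replicate 3 or any 1 of the controls (adjusted p = 0.054 to 0.0833). Sdc1, which codes a cell surface proteoglycan, had a log2 change of -0.03. Per length Sdc1 was the most abundant of the list over all samples, at 127 FPKM in MCT lungs and 131 FPKM in control lungs. In MCT lungs Mmp2 stood higher, at 150 FPKM, against 59.7 FPKM in control lungs. Of the 10 inducers of chemokine genes tested none passed with edgeR. There 2 higher and 1 lower had an unadjusted p under 0.05, for which the share over all tested genes was not counted. DESeq2 called 2 higher and limma-voom called none. Il1b stood at 72.0, 20.8 and 30.1 CPM in MCT lungs and 18.1, 21.7 and 13.5 CPM in control lungs (log2 1.21, adjusted p = 0.095), highest in MCT replicate 1. Without MCT replicate 1 the log2 change of Il1b was 0.52 (adjusted p = 0.245), and with limma-voom on all samples it was 1.04 (adjusted p = 0.155). Leaving out MCT replicate 2 brought Il1b past the threshold (log2 1.53, adjusted p = 0.0253). The same fit brought Stat3 past it (log2 0.61, adjusted p = 0.0169), which had 0.47 with all samples (adjusted p = 0.0731). Stat6 gave -0.24 (adjusted p = 0.165) and the NF-kB inhibitor gene Nfkbia -0.51 (adjusted p = 0.252). Of the inducers that did not pass the filter on low counts, Il6, a cytokine of the acute phase, had 109, 8 and 27 counts in MCT lungs and 1, 2 and 7 in control lungs. Il6 was highest in MCT replicate 1. Its groups did not overlap, but only by 8 counts in MCT replicate 2 against 7 in control replicate 3. Of all tested genes, 35.4% did not overlap. Il4 and Il13 had at most 1 count in any library, and Tnf and Il17a had none.

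**Figure D4:**
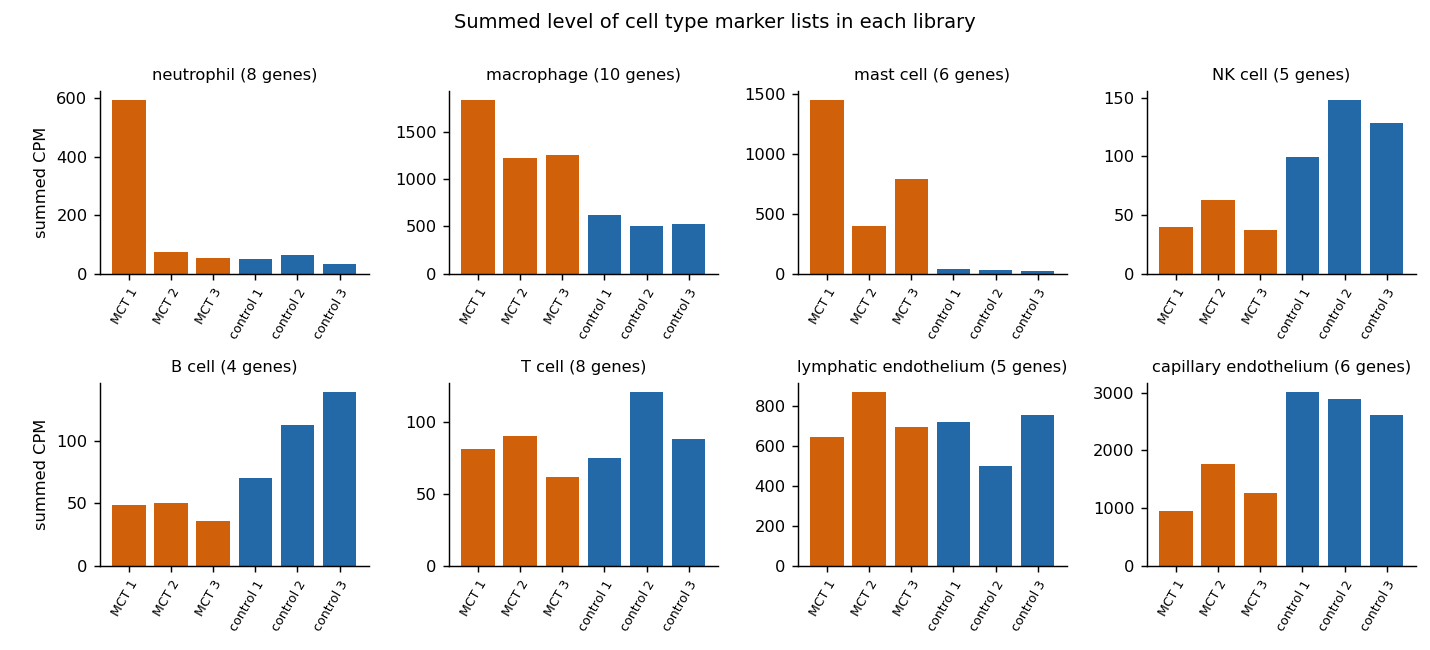
Summed TMM-normalized CPM of 8 cell type marker lists in each library, MCT left of control, with bars starting at 0. The neutrophil sum is high in MCT replicate 1 alone, where most of it is S100a9. The macrophage and mast cell sums are higher and the NK cell and B cell sums lower in all 3 MCT libraries. The lymphatic sums, most of which is Pdpn, overlap.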

How the data were processed

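RNA-seq of whole lung was analysed for 3 samples of rats given monocrotaline (MCT) and 3 of saline controls, grouped by sample title. The authors deposited 1 table with an estimated count and an FPKM value per gene and sample, per the file headers. Bowtie2, TopHat2 2.0.3.12 and the build Rnor_6.0 appear in the submitters' processing notes. The read counter, the annotation release and the treatment of reads with several matches: not given in the sources used here. The deposited estimated counts were rounded to whole numbers. Library totals were 13525937 to 17916144 counts.

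Counts of all 23802 genes were filtered with filterByExpr (minimum count 10, minimum total 15), which left 15250 genes, scaled by TMM and tested in R 4.3.3 with the quasi-likelihood test of edgeR 4.0.16, with no covariates. Benjamini-Hochberg adjustment ran over all tested genes, and an adjusted p under 0.05 was the threshold. Each log2 fold change is that of MCT relative to control and has its SE. Levels are TMM-normalized CPM of the single libraries, or mean FPKM with the SD over 3 samples. The fit was tested on simulated data. Alternatives were DESeq2 1.42.0, limma-voom and limma on log2(FPKM + 1) and log2(FPKM + 0.1) (limma 3.58.1), other scalings and filters, leaving out each sample, a replicate block, and summing identifiers of a symbol. Replicates were distinct libraries: the chi-square of their counts, divided by its degrees of freedom, was 22.1 to 49.7 for pairs within groups. The counts carry no molecular identifiers.

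The members and the lists of pathway and marker genes were chosen with earlier results of these data known. The genes named are, with 1 exception, all members that passed the test, for each role the most abundant and the one with the smallest p, members with a change of at least 2-fold that did not pass, and for each pathway list the 3 with the smallest p and the most abundant; other members were named after their values were seen. Promoter sequences are from RefSeq (GRCr8), matched by symbol, and hold the 250 bases before the first start listed for a gene. The exception is counted in the totals and not reported here.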

Additional observations from a re-analysis of the deposited data

How the results depend on the processing

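Of the 17 called members, Ccl24, Ackr4, Cxcl9, Ackr2 and Ccl9 were called in all 17 alternatives. Settings that kept all samples gave 10 to 18 members higher and 2 lower. With 1 sample left out there were 6 to 17 members higher, 1 to 2 lower and 7 to 16 called by at least 2-fold, 480 to 1394 genes higher and 212 to 978 lower over the whole table, and 5 to 19 genes called in the pathway lists. DESeq2 called 1184 genes lower and 1601 higher over the whole table, against 779 and 1221 with edgeR. No sign of pairing by replicate number was seen: same-numbered samples had deviation correlations of -0.058, -0.07 and -0.002. A fit with a replicate block called 10 members higher, 2 lower and 8 genes of the pathway lists. With the block the calls of Ccl3, Ccl12, Ccl22, Cxcl12 and Cxcr3 were lost (adjusted p = 0.0564 to 0.0973). So were those of Arrb2, Plcb2 and Rac2 (adjusted p = 0.0506 to 0.074). Log2 changes that took both signs belong to genes that did not pass. With 1 sample left out they ran from -0.0621 to 1.59 for Cxcl1, -0.88 to 1.69 for Cxcr2, -1.79 to 1.85 for Ccl20, -0.29 to 0.97 for Cxcl13, -0.78 to 0.0894 for Cxcr6, -0.29 to 0.11 for Ccr3, -0.49 to 0.34 for Ackr1, -0.11 to 0.17 for Ccl6 and -0.11 to 0.0322 for Sdc1. Ccl20 stood at -0.19 with limma-voom, -0.176 on log2(FPKM + 0.1), -0.0266 with the replicate block. Ackr1 stood at -0.019 with upper-quartile factors, -0.0207 with library size only, -0.0404 with limma-voom, -0.0254 on log2(FPKM + 1), -0.0495 on log2(FPKM + 0.1), -0.0356 with the replicate block, -0.0001 with identifiers summed per symbol. Ccl6 stood at 0.005 with median-of-ratios factors, 0.005 with DESeq2, 0.0048 with limma-voom, 0.0004 with the stricter filter, 0.0072 with the replicate block. The cause was not tested. The stricter read filter left out 12 of the genes named, Ccl22, Cxcl2 and Cxcl6 among them, and Ccr3 could not be tested without control replicate 1. Depth limits the 9 members that were not tested at all.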
